A study of Homo sapiens with 6 samples.

Results

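The genes described here are the heat shock proteins, their J-domain cochaperones and the factors that control them, measured by RNA sequencing in 786-O cells. Symbols in the count table were taken where they match the HSPA, HSPB, DNAJA, DNAJB or DNAJC series (HSPA5 excluded), together with HSPH1, HSP90AA1, HSP90AB1, HSPD1, HSPE1, CRYAB, BAG1 to BAG6, STIP1, AHSA1, HSF1 and HSF2. This gave 81 of the 60649 genes in the table, of which 43 are J-domain genes. No measured value entered the choice of genes, although earlier results on these libraries were known when the genes were chosen.

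786-O is an established human line from a clear cell renal cell carcinoma without functional VHL, so that its HIF factors escape degradation. The long non-coding RNA LINC02068 was targeted by the hairpin shRNA1 in 1 group and by shRNA2 in another, both with the genotype given as LINC02068 knockdown, and a further group carried a control hairpin (shControl, genotype given as WT). Each of the 3 groups has 2 libraries. All were grown in RPMI-1640 with 10% fetal bovine serum and given no treatment before total RNA was taken. The study is of 1 cell line, each group has 1 hairpin, and nothing in the labels marks the replicates as separate cultures, so the spread behind the p-values may be technical alone.

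Heat shock proteins bind proteins that are not yet folded or have lost their fold. HSP70 proteins hold and release such clients by an ATP cycle, and J-domain proteins deliver clients and start ATP hydrolysis. Nucleotide exchange factors, such as the HSP110 proteins and several BAG proteins, end the cycle. HSP90 acts later on kinases and receptors, small heat shock proteins hold aggregating clients without ATP, and the HSPD1 and HSPE1 chaperonin folds proteins in the mitochondrial matrix. HSF1 is the main transcription factor of the heat shock response and binds heat shock elements, inverted repeats of the letters GAA, in the promoters of many of these genes.

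Total counts per library ran from 15376448 to 37311846, and TMM scaling factors were 0.960 to 0.969 in the knockdown libraries and 1.07 to 1.08 in the shControl libraries. LINC02068 stood at 0.605 and 0.105 CPM with shRNA1, 0.472 and 0.478 CPM with shRNA2 and 1.07 and 1.14 CPM with shControl, so every knockdown library was below both shControl libraries at a low level (-1.46 ± 0.59 log2 units for the mean of both hairpins, edgeR adjusted p = 0.0447). With each hairpin alone it was not called (edgeR adjusted p = 0.0690 with shRNA1 and 0.148 with shRNA2). Mitochondrial transcripts took 2.57% to 2.71% of the counts in the knockdown libraries and 2.30% to 2.43% in the shControl libraries, and their part in the results was not tested. PAX8, a renal lineage factor, was at 315 to 335 CPM in the knockdown libraries and 306 to 307 CPM in the shControl libraries (0.10 ± 0.03, edgeR adjusted p = 0.0131). Of the other markers listed for the line, EPAS1 fell (281 to 283 CPM in the knockdown libraries and 542 to 559 CPM in the shControl libraries, -0.96 ± 0.03, edgeR adjusted p = 3.59e-13). VIM (0.21 ± 0.02), NNMT (0.26 ± 0.03) and KRT18 (0.27 ± 0.04) were called higher, and CA9 (0.14 ± 0.12) was not called. Among markers of other cell types, the leukocyte genes PTPRC and CD3E and the endothelial gene CDH5 were at 0 in all 6 libraries. So were the stromal gene DCN and the tubule genes LRP2 and UMOD. Other markers of the same cell types were present. CD68 had 36.9 to 44.0 CPM in the knockdown libraries and 35.8 to 39.6 CPM in the shControl libraries. ACTA2 rose (18.3 to 25.1 CPM in the knockdown libraries and 12.9 to 13.1 CPM in the shControl libraries, 0.67 ± 0.11, edgeR adjusted p = 5.88e-05), and PDGFRB fell (mean 1.75 CPM with shRNA1, 1.91 CPM with shRNA2 and 3.80 CPM with shControl, -1.06 ± 0.28, edgeR adjusted p = 0.00418). CUBN, PECAM1 and SLC34A1 (up to 2.41 CPM in a library) and VWF (4 counts in 1 library) were rare. Summed over the marker list of other cell types, levels were 59.9 to 74.0 CPM in the knockdown libraries and 54.9 to 57.5 CPM in the shControl libraries, and their part in the results was not tested.

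Levels are CPM (counts-per-million) with TMM-scaled library sizes. Fold changes are log2 values with standard errors for the mean of both hairpins against shControl unless a hairpin is named, and a gene was called higher or lower where the edgeR quasi-likelihood test gave a Benjamini-Hochberg adjusted p under 0.05 over all 16039 genes tested. The test is two-sided. In bulk RNA, a change in transcripts per cell and a change in the share of cells that carry them cannot be told apart.

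Chaperone transcripts took a larger share of the RNA in both knockdown lines. The 81 genes held 1.06% to 1.07% of all counts in the 4 knockdown libraries and 0.592% in both shControl libraries. Their summed level was 11063 and 11102 CPM with shRNA1, 10946 and 11096 CPM with shRNA2 and 5485 and 5545 CPM with shControl. Of the 69 genes that passed the filter on low counts, 39 were higher, 14 were lower and 16 were not called, where 28.6% of all tested genes were called higher and 28.9% lower (57.5% in all). Their median log2 fold change was 0.30, against −0.03 over all tested genes. Library sizes without TMM factors moved the median over all genes to −0.18 and that of the chaperone genes to 0.15, with 31 called higher and 16 lower. Under that scaling 21.2% of all tested genes were called higher and 37.6% lower.

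**Figure D1:**
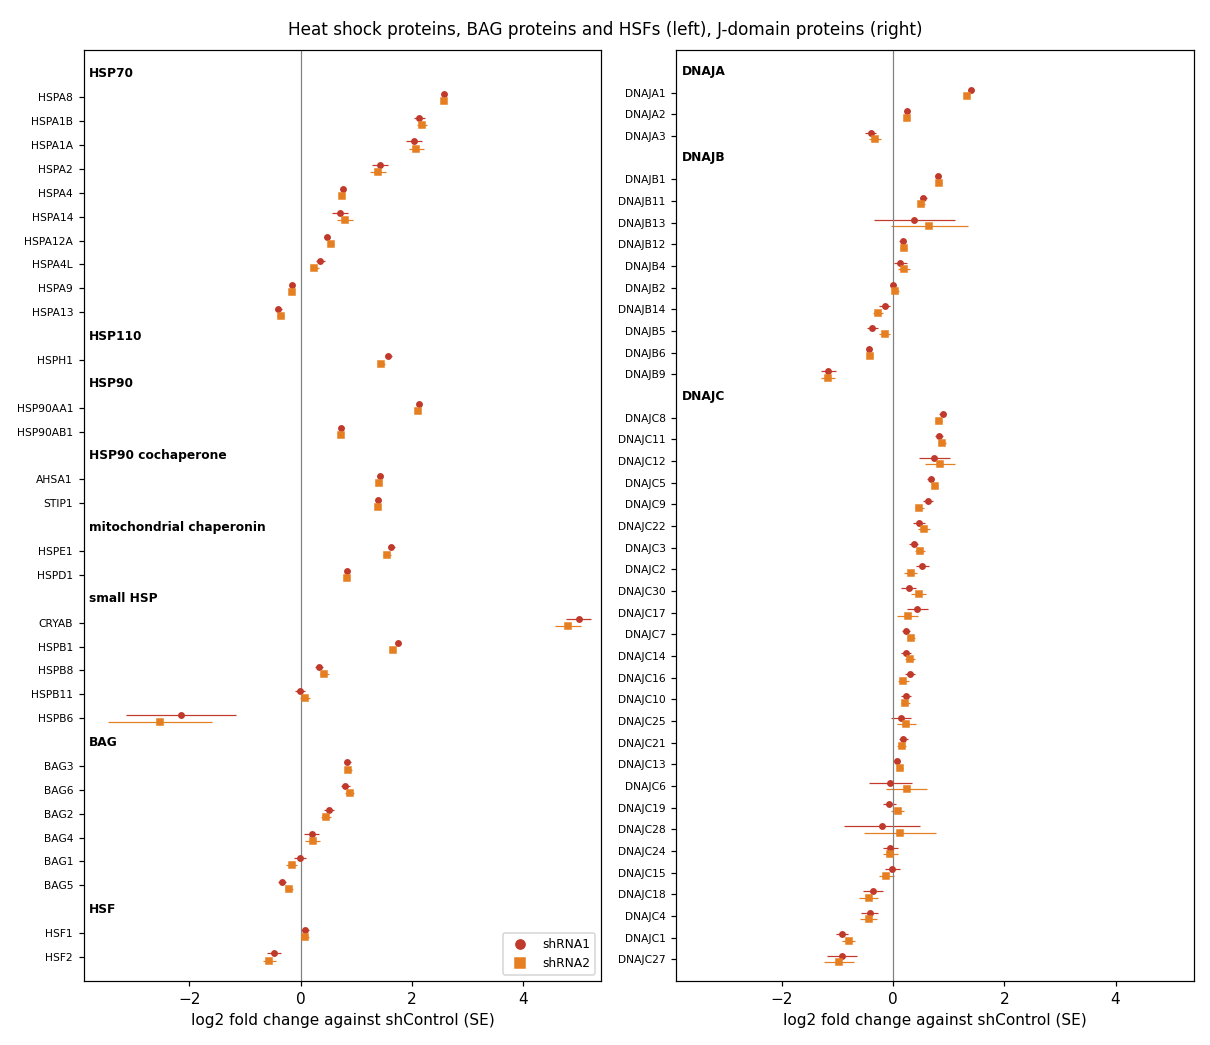
Log2 fold change against shControl (x axis, SE bars) of each of the 69 tested genes for shRNA1 (circles) and shRNA2 (squares), grouped by class and sorted within a class. CRYAB lies farthest to the right at 4.90 for the mean of both hairpins and HSPB6 farthest to the left at -2.34, and the J-domain genes lie closer to 0 than most HSP70, HSP90 and chaperonin genes.

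The 2 hairpins were also set apart. With shRNA1, 38 of the 69 genes were called higher and 11 lower, where 26.8% of all tested genes were called higher and 25.6% lower (52.4% in all). With shRNA2, 39 were called higher and 13 lower, where 26.7% of all tested genes were called higher and 26.1% lower (52.8% in all). Both comparisons use the same shControl libraries, so they are not independent of each other. In the direct comparison of shRNA1 with shRNA2 none of the 69 genes was called by edgeR or by DESeq2, where edgeR called 0.0312% of all tested genes. Among the 69 genes the smallest edgeR adjusted p was 0.916. Unadjusted p-values under 0.05 were found for 3 of them in edgeR and 1 in DESeq2. Over all 16039 tested genes, 873 had one in edgeR and 406 in DESeq2. The 3 genes were HSPB1 (shRNA1 minus shRNA2 0.08 ± 0.03), HSPH1 (0.12 ± 0.06) and DNAJB5 (-0.22 ± 0.10). Called in the same direction with each hairpin and in their mean were 37 genes that were higher and 10 that were lower, where 24.4% and 22.4% of all tested genes met this rule. For HSPA8 the difference between the hairpins was -0.01 ± 0.03 and for HSP90AA1 0.02 ± 0.03.

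Among the 69 tested genes, 43 were higher in every knockdown library than in either shControl library, and 14 were lower in every one, where 32.7% of all tested genes lay wholly higher and 34.2% wholly lower. The other 12 genes overlapped between the groups. A change of over 1 log2 unit was called for 12 genes that were higher and 2 that were lower, where 4.61% of all tested genes passed that size upward and 8.09% downward. Of the 12, DNAJA1 was the 1 J-domain gene.

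Promoters of these genes were searched for heat shock elements, the sites that HSF1 is known to bind. RefSeq promoters of GRCh38.p14 (250 bases before to 50 bases after a transcript start) were found for 69 of the 81 genes. Motifs of 2 units were GAANNTTC or TTCNNGAA, in which N is any base, and motifs of 3 units extend either word by NN and the next GAA or TTC in turn. Both strands were covered, since each 2-unit word is its own reverse complement and the 3-unit words are each other's. Every 3-unit match holds 2-unit matches that overlap. A 2-unit match was present in 24 of the 69 genes (34.8%), where 16.2% of all genes with a RefSeq promoter had one. A 3-unit match was present in 7 (10.1%), where 0.608% of all genes had one.

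A 2-unit match was found in 8 of 39 J-domain genes and in 16 of 30 of the others, a difference that was not tested. By call, 13 of 36 higher genes, 3 of 13 lower genes and 3 of 12 genes not called had a 2-unit match, and 5, 1 and 0 of them a 3-unit match. Of 8 genes below the filter on low counts, 5 had a 2-unit match and 1 a 3-unit match. The 2-unit share was thus highest among genes hardly detected (62.5%, against 36.1% of the higher genes). The 7 genes with 3 units were HSPA8, HSP90AA1, HSP90AB1, HSPD1, DNAJA1, DNAJB6 and HSPA6. HSPH1 and BAG3, also higher, had no match in this window, which says only that these letters are not there. A match is a description of the letters and not a site of binding.

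The sequences below show the matches in 6 promoters, chosen after their values were seen because each holds a match before its start and they span genes that rose and 1 that fell. They come from RefSeq (GRCh38.p14), read 5′ to 3′ along the gene's own strand, with the motifs in capitals. For HSPA8 and HSP90AA1, where annotated exons reach upstream of the start, windows around each match are given, and for the other genes the part free of exons.
HSPA8, chr11:123062346-123062374, minus strand: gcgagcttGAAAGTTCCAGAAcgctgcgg
HSPA8, chr11:123062171-123062199, minus strand: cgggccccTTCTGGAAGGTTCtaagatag
HSP90AA1, chr14:102087112-102087140, minus strand: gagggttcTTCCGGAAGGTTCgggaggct
HSP90AA1, chr14:102087094-102087123, minus strand: gttcgggaggcTTCTGGAAaaagcgccgcg
HSP90AB1, chr6:44247693-44247865, plus strand: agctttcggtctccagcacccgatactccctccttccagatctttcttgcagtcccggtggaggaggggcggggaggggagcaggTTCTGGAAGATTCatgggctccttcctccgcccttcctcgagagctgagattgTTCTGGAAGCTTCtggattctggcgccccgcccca
HSPA1A, chr6:31815293-31815463, plus strand: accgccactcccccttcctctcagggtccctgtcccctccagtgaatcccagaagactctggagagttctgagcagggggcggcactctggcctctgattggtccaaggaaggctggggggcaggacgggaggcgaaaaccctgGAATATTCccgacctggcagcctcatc
DNAJB1, chr19:14518421-14518647, minus strand: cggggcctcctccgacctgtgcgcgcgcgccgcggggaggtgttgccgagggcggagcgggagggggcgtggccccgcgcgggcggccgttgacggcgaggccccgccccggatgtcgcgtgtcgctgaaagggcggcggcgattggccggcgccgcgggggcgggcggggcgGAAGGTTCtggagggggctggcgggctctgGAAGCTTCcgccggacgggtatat
DNAJB6, chr7:157336774-157336965, plus strand: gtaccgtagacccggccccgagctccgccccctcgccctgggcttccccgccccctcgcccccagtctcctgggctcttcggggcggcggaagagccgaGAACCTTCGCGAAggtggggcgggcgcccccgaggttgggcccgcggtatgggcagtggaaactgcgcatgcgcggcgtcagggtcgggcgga

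HSPA8 and HSP90AB1 each hold a pair of 3-unit matches, and HSP90AA1 holds 1 of 3 units and a separate one of 2. DNAJB1 has a pair of 2-unit matches, and HSPA1A has 1. DNAJB6, whose level fell (-0.42), has a 3-unit match, as do HSPA8 (2.58) and HSP90AA1 (2.11), whose levels rose.

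Most HSP70 genes rose, led by HSPA8. Of 10 tested HSP70 genes 8 were higher and 2 lower, with a median of 0.75, where 28.6% of all tested genes were higher and 28.9% lower. HSPA8 (ENSG00000109971.14, chr11:123057489-123063230 on the minus strand) encodes HSC70, the HSP70 that cells make at all times. It stood at 1475 and 1484 CPM in the shRNA1 libraries, 1467 and 1514 CPM in the shRNA2 libraries and 246 and 251 CPM in the shControl libraries. All 4 knockdown libraries lay far above both shControl libraries, and the fold change was 2.58 ± 0.03, or 5.98-fold (edgeR adjusted p = 1.28e-17). Its transcripts alone took 0.142% to 0.145% of all counts in the knockdown libraries and 0.0266% to 0.0268% in the shControl libraries.

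The stress-inducible pair HSPA1A and HSPA1B, neighbours on chromosome 6, also rose. HSPA1B (ENSG00000204388.7, chr6:31827735-31830255 on the plus strand) had 39.2 and 40.3 CPM in the shRNA1 libraries, 40.4 and 42.1 CPM in the shRNA2 libraries and 9.44 and 8.74 CPM in the shControl libraries (2.16 ± 0.09, edgeR adjusted p = 1.39e-11). HSPA1A (ENSG00000204389.10, chr6:31815464-31817946 on the plus strand) had 16.9 and 17.0 CPM in the shRNA1 libraries, 17.2 and 17.8 CPM in the shRNA2 libraries and 4.40 and 3.92 CPM in the shControl libraries (2.06 ± 0.13, edgeR adjusted p = 1.87e-09). The groups did not overlap for either gene. Of the 50-base words in HSPA1B transcripts 73.5% also occur in another gene, and 72.6% of those in HSPA1A, almost all in each other, so the split of reads between them is uncertain. Per length, HSPA1B was at 15.8 with shRNA1, 16.3 with shRNA2 and 3.61 with shControl CPM per kb of exon, far below HSPA8 in every group.

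HSPA2, known for its role in male germ cells, rose by 1.41 ± 0.13 with 14.8 to 16.2 CPM in the knockdown libraries and 5.56 to 6.22 CPM in the shControl libraries. HSPA4, an HSP110-type exchange factor, had 312 and 306 CPM in the shRNA1 libraries, 313 and 296 CPM in the shRNA2 libraries and 186 and 179.8 CPM in the shControl libraries (0.75 ± 0.04, edgeR adjusted p = 8.16e-11), again without overlap. HSPA14, which works at the ribosome, rose by 0.75 ± 0.13, the divergent HSPA12A by 0.51 ± 0.05 and HSPA4L, a relative of HSPA4, by 0.30 ± 0.07. The HSPA4L call was lost with library sizes without TMM factors (0.15, adjusted p = 0.0858). The 2 HSP70 genes that fell encode proteins of organelles, although HSPA5 of the endoplasmic reticulum, excluded from the set, rose (0.47 ± 0.03). HSPA9, the HSP70 of the mitochondrial matrix, had 243 and 242 CPM in the shRNA1 libraries, 243 and 243 CPM in the shRNA2 libraries and 276 and 266 CPM in the shControl libraries (-0.16 ± 0.03, edgeR adjusted p = 0.000522). HSPA13, a microsomal HSP70 relative, had 61.3 and 66.8 CPM in the shRNA1 libraries, 66.8 and 65.6 CPM in the shRNA2 libraries and 84.4 and 85.5 CPM in the shControl libraries (-0.38 ± 0.05, edgeR adjusted p = 1.83e-05). Both were lower in every knockdown library, and the HSPA9 change was small.

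HSPH1, the HSP110 exchange factor that frees HSP70 of ADP, had 158 and 145 CPM in the shRNA1 libraries, 140.2 and 138 CPM in the shRNA2 libraries and 53.3 and 48.7 CPM in the shControl libraries. Each knockdown library held more than both shControl libraries, and the fold change was 1.51 ± 0.05 (edgeR adjusted p = 2.8e-12).

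Both cytosolic HSP90 genes rose. HSP90AA1, the stress-inducible form (ENSG00000080824.19, chr14:102080738-102139699 on the minus strand) had 1945 and 1964 CPM in the shRNA1 libraries, 1902 and 1962 CPM in the shRNA2 libraries and 453 and 447 CPM in the shControl libraries, a fold change of 2.11 ± 0.03 (edgeR adjusted p = 6.04e-17). HSP90AB1, the constitutive form (ENSG00000096384.20, chr6:44246166-44253888 on the plus strand), had 1821 and 1822 CPM in the shRNA1 libraries, 1794 and 1852 CPM in the shRNA2 libraries and 1099.7 and 1105 CPM in the shControl libraries, a fold change of 0.72 ± 0.03 (edgeR adjusted p = 2.5e-12). Neither overlapped between the groups. Counts of HSP90AA1 were slightly above those of HSP90AB1 in the knockdown libraries and below them in the shControl libraries. The HSP90 cochaperones moved the same way. AHSA1, which speeds the ATPase of HSP90, had 126 and 132 CPM in the shRNA1 libraries, 125 and 129 CPM in the shRNA2 libraries and 47.2 and 48.9 CPM in the shControl libraries (1.42 ± 0.05), and STIP1, which links HSP70 to HSP90, had 409.8 and 433 CPM in the shRNA1 libraries, 405 and 436 CPM in the shRNA2 libraries and 158 and 163 CPM in the shControl libraries (1.39 ± 0.04). Every knockdown library was above both shControl libraries for each.

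**Figure D2:**
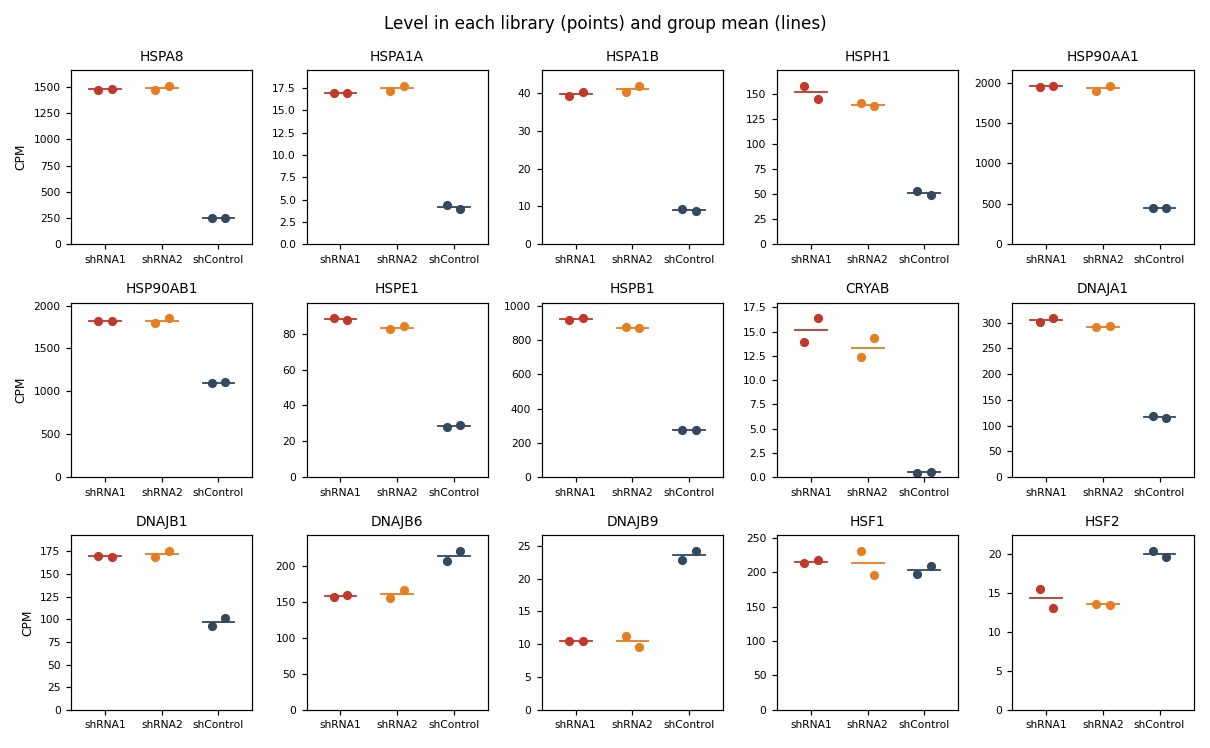
CPM (y axis, starting at 0, a different scale in each panel) of 15 genes in each library (points) with the mean of each group (lines), for shRNA1, shRNA2 and shControl from left to right. HSPA8, HSP90AA1 and CRYAB stand far above shControl with both hairpins, DNAJB6, DNAJB9 and HSF2 stand below it, and HSF1 overlaps.

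The mitochondrial chaperonin genes rose together. HSPE1, the lid subunit, had 88.6 and 87.4 CPM in the shRNA1 libraries, 82.8 and 84.2 CPM in the shRNA2 libraries and 27.7 and 29.2 CPM in the shControl libraries (1.59 ± 0.06, edgeR adjusted p = 4.63e-12). HSPD1, the ring subunit, had 519.9 and 518 CPM in the shRNA1 libraries, 519.7 and 522 CPM in the shRNA2 libraries and 293 and 294 CPM in the shControl libraries (0.83 ± 0.03, edgeR adjusted p = 2.05e-12). The groups did not overlap for either subunit. The 2 genes lie head to head on chromosome 2 on opposite strands and share exon positions, and the strand setting of the counting is not given in the sources used here, so reads in that overlap cannot be told apart.

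Small heat shock proteins held the gene with the highest fold change of all 69. CRYAB (ENSG00000109846.9, chr11:111908565-111923722 on the minus strand), alpha B crystallin, had 14.0 and 16.4 CPM in the shRNA1 libraries, 12.4 and 14.3 CPM in the shRNA2 libraries and 0.429 and 0.499 CPM in the shControl libraries. It was close to absent with shControl and clearly detected with both hairpins, a 29.9-fold difference (4.90 ± 0.22, edgeR adjusted p = 3.44e-11). HSPB1 (ENSG00000106211.10, chr7:76302544-76304295 on the plus strand), known as HSP27, had 917 and 927 CPM in the shRNA1 libraries, 877 and 869 CPM in the shRNA2 libraries and 273 and 277 CPM in the shControl libraries (1.71 ± 0.03, edgeR adjusted p = 8.96e-16), without overlap.

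CRYAB shares exon positions with HSPB2 on the other strand. HSPB2 had 7 and 8 counts with shRNA1, 7 and 0 with shRNA2 and 0 and 0 with shControl and was below the filter. HSPB8, the partner of BAG3 in selective autophagy, had 43.3 and 43.4 CPM in the shRNA1 libraries, 46.0 and 46.5 CPM in the shRNA2 libraries and 32.9 and 35.8 CPM in the shControl libraries (0.38 ± 0.07). HSPB11, a ciliary transport protein that carries the family name, was not called (0.03), and its sign turned with library sizes without TMM factors. HSPB6 had 0.336 and 0.105 CPM in the shRNA1 libraries, 0.278 and 0.00 CPM in the shRNA2 libraries and 1.18 and 0.749 CPM in the shControl libraries, lower in all 4 knockdown libraries at a level near 1 CPM with shControl (-2.34 ± 0.77, edgeR adjusted p = 0.0174). Its call was lost without shRNA1 replicate 2 (adjusted p = 0.0720), shControl replicate 1 (adjusted p = 0.195) or shControl replicate 2 (adjusted p = 0.0723).

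**Figure D3:**
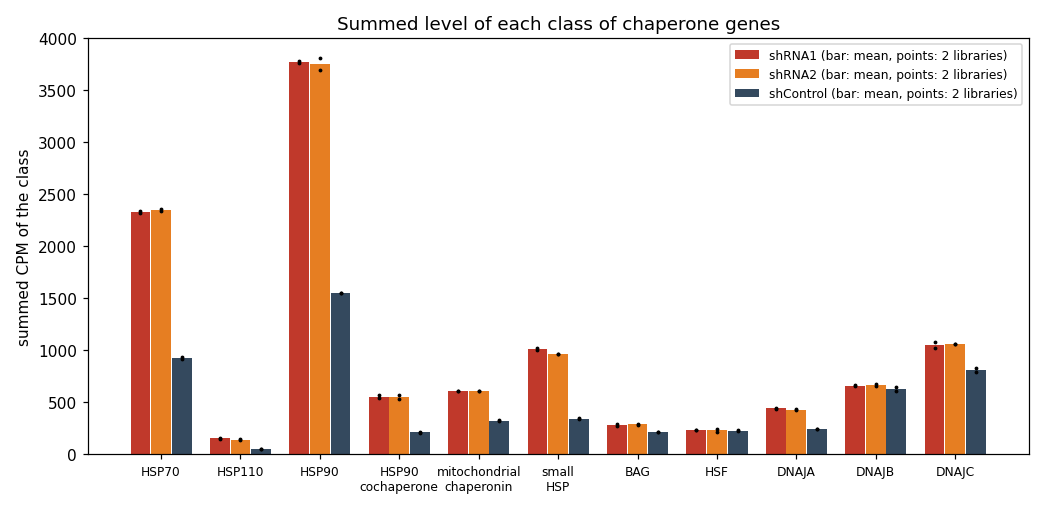
Summed CPM (y axis) of the genes of each class for shRNA1, shRNA2 and shControl (bars, group means; points, the 2 libraries of each). HSP90 genes reached 3776 and 3755 CPM with the 2 hairpins and 1552 CPM with shControl, HSP70 genes 2333 and 2347 CPM and 926 CPM, and the sums of DNAJB and HSF genes differed little.

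Several BAG proteins bind the ATPase domain of HSP70. Of 6 genes 3 were higher, 1 was lower and 2 were not called, where 28.6% of all tested genes were higher and 28.9% lower. With 6 genes, a difference from these shares was not tested. BAG3, the stress-inducible member, had 82.1 and 84.0 CPM in the shRNA1 libraries, 84.3 and 83.8 CPM in the shRNA2 libraries and 45.1 and 47.7 CPM in the shControl libraries (0.85 ± 0.06, edgeR adjusted p = 2.91e-09). BAG6, which guards tail-anchored and misfolded proteins, had 60.1 and 68.7 CPM in the shRNA1 libraries, 69.8 and 66.0 CPM in the shRNA2 libraries and 38.7 and 35.2 CPM in the shControl libraries (0.84 ± 0.07, edgeR adjusted p = 6.12e-08). BAG2, an inhibitor of the ubiquitin ligase CHIP, had 41.7 and 43.7 CPM in the shRNA1 libraries, 41.4 and 40.3 CPM in the shRNA2 libraries and 32.2 and 27.8 CPM in the shControl libraries (0.48 ± 0.08). All 3 were higher in every knockdown library. BAG5 had 46.6 and 52.1 CPM in the shRNA1 libraries, 51.5 and 56.6 CPM in the shRNA2 libraries and 63.2 and 61.9 CPM in the shControl libraries and was lower in each (-0.28 ± 0.06, edgeR adjusted p = 0.00183). BAG4 (0.21) and BAG1 (-0.09) overlapped between the groups and were not called, although BAG1 was called lower with library sizes without TMM factors (−0.24, adjusted p = 0.0240).

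Of the heat shock factors, HSF1 was not called and HSF2 fell. HSF1 had 213 and 218 CPM in the shRNA1 libraries, 231 and 196 CPM in the shRNA2 libraries and 198 and 209 CPM in the shControl libraries. Its groups overlapped, and the change of 0.08 ± 0.06 was not called (edgeR adjusted p = 0.353). It was −0.08 with library sizes without TMM factors, and it was called at 0.13 (adjusted p = 0.0131) without shRNA2 replicate 2. HSF2, which can form mixed trimers with HSF1, had 15.5 and 13.1 CPM in the shRNA1 libraries, 13.6 and 13.4 CPM in the shRNA2 libraries and 20.3 and 19.5 CPM in the shControl libraries. It was lower in every knockdown library (-0.52 ± 0.10, edgeR adjusted p = 0.000539). RNA levels do not show the trimer state or phosphorylation by which HSF1 is known to be switched on.

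J-domain genes changed in both directions. Of 39 tested genes 18 were higher, 9 were lower and 12 were not called, with a median of 0.19, while the 30 other tested genes split into 21, 5 and 4 with a median of 0.75. The J-domain shares were 46.2% higher and 23.1% lower, where 28.6% of all tested genes were higher and 28.9% lower. The difference between these groups of genes was not tested. With library sizes without TMM factors 11 J-domain genes were higher and 10 lower with 18 not called (median 0.03), and of the others 20 were higher, 6 lower and 4 not called (median 0.59). Under that scaling 21.2% of all tested genes were higher and 37.6% lower.

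Class A J-domain proteins are the closest to bacterial DnaJ. DNAJA1 (ENSG00000086061.16, chr9:33025211-33039907 on the plus strand), a main cochaperone of HSC70, had 301 and 309 CPM in the shRNA1 libraries, 292 and 293 CPM in the shRNA2 libraries and 118 and 114 CPM in the shControl libraries. It was the J-domain gene that rose most, by 1.36 ± 0.03, without overlap (edgeR adjusted p = 7.88e-14). Its relative DNAJA2 had 108 and 110.2 CPM in the shRNA1 libraries, 109.8 and 107 CPM in the shRNA2 libraries and 89.2 and 93.8 CPM in the shControl libraries (0.25 ± 0.05), a small rise that was no longer called with library sizes without TMM factors (0.09, adjusted p = 0.0837). DNAJA3, which works with HSPA9 in mitochondria, had 23.9 and 26.9 CPM in the shRNA1 libraries, 27.2 and 26.5 CPM in the shRNA2 libraries and 36.5 and 30.8 CPM in the shControl libraries and was lower in all 4 knockdown libraries (-0.36 ± 0.09, edgeR adjusted p = 0.00241). Without shControl replicate 1 that call was lost (−0.25, adjusted p = 0.0703).

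Of 10 tested class B genes 3 were higher, 4 lower and 3 not called, where 28.6% of all tested genes were higher and 28.9% lower. With 10 genes, a difference from these shares was not tested. Their median was 0.09, and −0.06 with library sizes without TMM factors. DNAJB1, the classical HSP40 that is induced by heat, had 171 and 169 CPM in the shRNA1 libraries, 168 and 175 CPM in the shRNA2 libraries and 92.2 and 102 CPM in the shControl libraries (0.81 ± 0.05, edgeR adjusted p = 5.84e-10). DNAJB11, a helper of HSPA5 in the endoplasmic reticulum, had 84.1 and 77.5 CPM in the shRNA1 libraries, 77.9 and 79.4 CPM in the shRNA2 libraries and 55.5 and 55.5 CPM in the shControl libraries (0.52 ± 0.06, edgeR adjusted p = 9.2e-07). Both were higher in all 4 knockdown libraries.

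DNAJB6 and DNAJB9 fell. DNAJB6 (ENSG00000105993.15, chr7:157335381-157417439 on the plus strand), which keeps polyglutamine proteins from aggregating, had 158 and 159.7 CPM in the shRNA1 libraries, 157 and 167 CPM in the shRNA2 libraries and 208 and 221 CPM in the shControl libraries (-0.42 ± 0.04, edgeR adjusted p = 1.78e-07). DNAJB9 (ENSG00000128590.5, chr7:108569568-108574850 on the plus strand), an endoplasmic reticulum protein known as ERdj4, had 10.5 and 10.5 CPM in the shRNA1 libraries, 11.3 and 9.57 CPM in the shRNA2 libraries and 22.9 and 24.2 CPM in the shControl libraries (-1.17 ± 0.11, edgeR adjusted p = 1.41e-07). Neither overlapped between the groups, and DNAJB9 was 2.24-fold higher in shControl than with the hairpins. Of the smaller changes, DNAJB12 rose by 0.18 ± 0.05, and DNAJB14 (-0.21 ± 0.08) and DNAJB5 (-0.26 ± 0.09) fell. The calls of all 3 were lost when single libraries were left out, DNAJB12 without shControl replicate 1 (adjusted p = 0.120), DNAJB5 without shRNA2 replicate 1 or either shControl library (adjusted p = 0.0541 to 0.0861) and DNAJB14 without any library but shRNA1 replicate 1 (adjusted p = 0.0532 to 0.143). With library sizes without TMM factors DNAJB12 was at 0.03 (adjusted p = 0.693). DNAJB2, DNAJB4 and DNAJB13 were not called.

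Class C genes share little besides the J domain. Of 26 genes 13 were higher, 4 lower and 9 not called, where 28.6% of all tested genes were higher and 28.9% lower. DNAJC8, a splicing-associated protein, had 128 and 128 CPM in the shRNA1 libraries, 124 and 119.8 CPM in the shRNA2 libraries and 64.8 and 73.2 CPM in the shControl libraries (0.85 ± 0.05, edgeR adjusted p = 1.46e-09). DNAJC5, the cysteine string protein of secretory vesicles, had 156 and 151 CPM in the shRNA1 libraries, 159 and 166 CPM in the shRNA2 libraries and 90.9 and 101 CPM in the shControl libraries (0.72 ± 0.05, edgeR adjusted p = 3.86e-09). DNAJC11, found at the mitochondrial membranes, had 90.3 and 89.8 CPM in the shRNA1 libraries, 92.3 and 95.0 CPM in the shRNA2 libraries and 47.3 and 54.5 CPM in the shControl libraries (0.85 ± 0.06, edgeR adjusted p = 9.94e-09). For these 3 genes all knockdown libraries lay above both shControl libraries.

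The other class C genes that rose included DNAJC9, a histone chaperone (0.55), DNAJC22 (0.51), DNAJC3, an endoplasmic reticulum protein also known as an inhibitor of the kinase PKR (0.43), and DNAJC2, the partner of HSPA14 at the ribosome (0.42). DNAJC7, which binds both HSP70 and HSP90, rose by 0.28 ± 0.06 and lost its call with library sizes without TMM factors (0.12, adjusted p = 0.0975). Several calls were lost without 1 shControl library. Without shControl replicate 1 the adjusted p was 0.0605 for DNAJC2 and 0.0826 for DNAJC14 (0.27), and without shControl replicate 2 it was 0.118 for DNAJC12 (0.79) and 0.240 for DNAJC30 (0.37). DNAJC16 (0.25) and DNAJC10 (0.23) lost theirs without either shControl library or without shRNA2 replicate 1, with adjusted p-values of 0.0557 to 0.108 for DNAJC16 and 0.0512 to 0.185 for DNAJC10. With library sizes without TMM factors the calls of DNAJC10 (0.07, adjusted p = 0.438), DNAJC14 (0.12, adjusted p = 0.227), DNAJC16 (0.09, adjusted p = 0.346) and DNAJC30 (0.21, adjusted p = 0.132) were lost as well.

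DNAJC1, a J-domain protein of the endoplasmic reticulum membrane that binds ribosomes, fell the most surely of class C. It had 15.1 and 13.5 CPM in the shRNA1 libraries, 15.4 and 15.6 CPM in the shRNA2 libraries and 26.9 and 27.0 CPM in the shControl libraries (-0.86 ± 0.09, edgeR adjusted p = 1.24e-06), with no overlap. DNAJC27, a small GTPase with a J domain, was rare and had 2.11 to 2.28 CPM in the knockdown libraries and 4.07 to 4.40 CPM in the shControl libraries (-0.94 ± 0.23, edgeR adjusted p = 0.00221). DNAJC4 (-0.43 ± 0.13) and DNAJC18 (-0.40 ± 0.15) fell, but these calls were lost when single libraries were left out. DNAJC4 lost it without shControl replicate 1 (adjusted p = 0.0546) or replicate 2 (adjusted p = 0.0866). DNAJC18 lost it without shRNA1 replicate 2, shRNA2 replicate 1 or either shControl library (adjusted p = 0.0636 to 0.219).

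Grouped by the place where each protein works, a grouping made with the values known, 29 of 47 tested genes of the cytosol, nucleus or other sites were higher and 6 lower (median 0.51). Of 12 genes of the endoplasmic reticulum 6 were higher and 5 lower (median 0.19), and of 10 mitochondrial genes 4 were higher and 3 lower (median −0.02), where 28.6% of all tested genes were higher and 28.9% lower. The shares of the mitochondrial genes were 40% higher and 30% lower. With 10 genes, a difference from all tested genes was not tested, nor was any difference between the places.

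**Figure D4:**
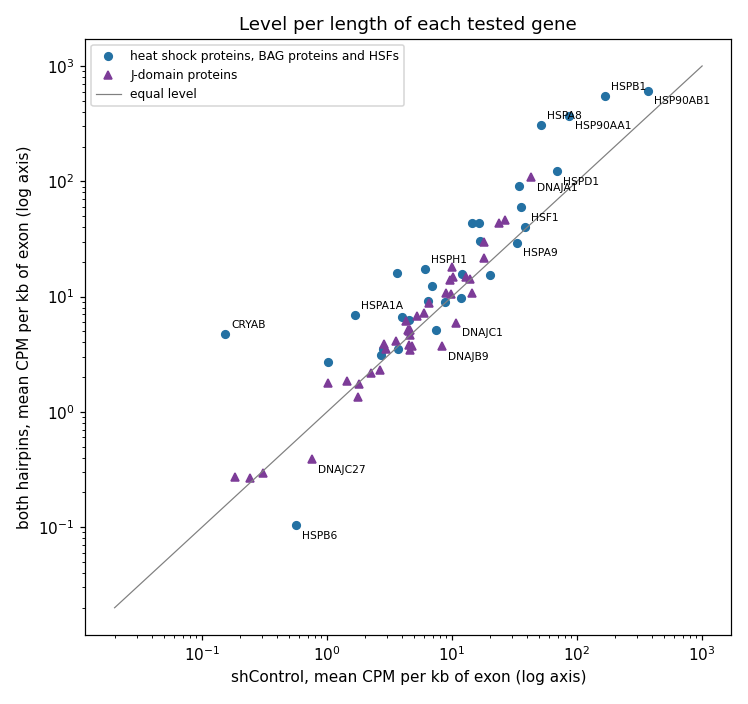
Mean CPM per kb of exon of each tested gene, with both hairpins (y axis) and with shControl (x axis), both on log axes, for J-domain genes (triangles) and all others (circles). CRYAB, HSPA8 and HSP90AA1 lie far above the line of equal level, and HSPB6, DNAJB9, DNAJC1 and DNAJC27 below it.

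Per length of exon, the order of the most abundant genes changed in part. Mean CPM per kb of HSP90AB1 was 611 with shRNA1, 612 with shRNA2 and 370.0 with shControl, the highest of the 81 in each group. HSPB1 was the second, at 564 with shRNA1, 534 with shRNA2 and 168 with shControl CPM per kb, and HSP90AA1 the third, at 372 with shRNA1, 368 with shRNA2 and 85.7 with shControl CPM per kb. HSPA8 had 305 with shRNA1, 307 with shRNA2 and 51.2 with shControl CPM per kb, the fourth in the knockdown groups and the fifth with shControl, where HSPD1 lay above it (122 with shRNA1, 123 with shRNA2 and 69.1 with shControl CPM per kb).

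Ratios of counts within a library do not depend on how libraries are scaled. The ratio of HSP90AA1 to HSP90AB1 was 1.06 to 1.08 in the knockdown libraries and 0.404 to 0.412 in the shControl libraries. HSPA8 counts were 6.05 to 6.24 times those of HSPA9 in the knockdown libraries and 0.892 to 0.945 times in the shControl libraries. These ratios say that the paired transcripts changed unequally, and the ranges of the 2 kinds of library did not meet.

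The same held among J-domain genes and the chaperonin. The ratio of DNAJB1 to DNAJB6 was 1.05 to 1.08 in the knockdown libraries and 0.443 to 0.460 in the shControl libraries. That of DNAJA1 to DNAJA2 was 2.66 to 2.80 in the knockdown libraries and 1.22 to 1.32 in the shControl libraries. That of HSPE1 to HSPD1 was 0.159 to 0.170 in the knockdown libraries and 0.0946 to 0.0993 in the shControl libraries. The ratio of HSPA1B to HSPA1A differed least, without overlap, at 2.31 to 2.37 in the knockdown libraries and 2.15 to 2.23 in the shControl libraries. With shControl it rests on few counts (176 and 245 of HSPA1B, 82 and 110 of HSPA1A). The fold changes of these 2 genes were close (2.16 ± 0.09 and 2.06 ± 0.13), their reads are split with uncertainty, and the small gap was not tested. The pairs were chosen with the values known.

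**Figure D5:**
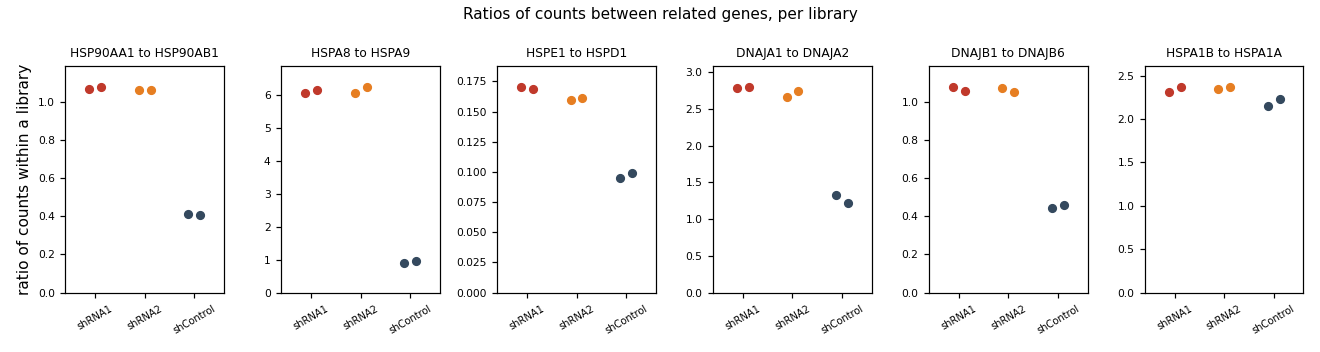
Ratio of counts (y axis, starting at 0, a different scale in each panel) of 6 pairs of related genes within each library, for shRNA1, shRNA2 and shControl from left to right. In the HSP90AA1 to HSP90AB1 panel the knockdown libraries sit at 1.06 to 1.08 and the shControl libraries at 0.404 to 0.412, and in the HSPA1B to HSPA1A panel the points nearly level.

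Partners of these chaperones outside the set were read from lists written with earlier results known, some of which share genes, and their counts stand beside 28.6% higher and 28.9% lower over all tested genes. Of 19 tested HSP90 cochaperones 16 were higher, 1 was lower and 2 were not called. CDC37, which brings kinases to HSP90, had 297 and 294 CPM in the shRNA1 libraries, 283 and 317 CPM in the shRNA2 libraries and 142 and 147 CPM in the shControl libraries (1.04 ± 0.04), and FKBP4, an immunophilin of steroid receptor complexes, rose by 0.91 ± 0.04. NUDC rose by 0.91 ± 0.04 and UNC45A, a myosin chaperone, by 0.68 ± 0.04, while AHSA2P, a relative of AHSA1, fell by 0.92 ± 0.12. Of 12 HSP70 cofactors 9 were higher, 2 lower and 1 not called. STUB1, the ubiquitin ligase CHIP, rose by 1.01 ± 0.04, ST13 by 0.64 ± 0.03, HSPBP1 by 0.64 ± 0.08 and SGTA by 0.34 ± 0.04. Of 23 genes listed as HSF1 targets 13 were higher, 4 lower and 6 not called. The cytosolic chaperonin subunit TCP1 (1.00 ± 0.03) and the ubiquitin gene UBB (0.92 ± 0.03) rose, the endoplasmic reticulum HSP90 gene HSP90B1 fell (-0.60 ± 0.03), and ZFAND2A, known for its induction by arsenite, fell (-1.57 ± 0.13).

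Below the filter were 12 genes, which the tests above leave out. HSPA7 and HSPB3 had 0 counts in every library, which does not exclude a very low level. HSPA6, an HSP70 gene known for strict induction by heat, had 2 and 8 counts with shRNA1, 13 and 9 with shRNA2 and 0 and 8 with shControl, and HSPA12B had 7 and 7 counts with shRNA1, 13 and 7 with shRNA2 and 2 and 7 with shControl. HSPB7 had 3 and 2 counts with shRNA1, 8 and 0 with shRNA2 and 4 and 17 with shControl, and DNAJA4 had 2 and 8 counts with shRNA1, 4 and 3 with shRNA2 and 9 and 7 with shControl. The others (DNAJB3, DNAJB7, DNAJB8, HSPA1L, HSPB2 and HSPB9) never passed 11 counts in a library. Every knockdown library held more HSPA12B in CPM than both shControl libraries (0.335 to 0.470 CPM with the hairpins and 0.107 to 0.250 CPM with shControl). In the edgeR fit without a low-count filter 10 of the 12 genes were tested, and none was called for the mean of both hairpins, with an unadjusted p under 0.05 for 1 of them, HSPB2 (adjusted p = 0.0541). HSPB2 was called higher with shRNA1 (adjusted p = 0.0235) and not with shRNA2 (adjusted p = 0.195), on counts that reached 8 at most. For HSPA12B the adjusted p was 0.551.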

How the data were processed

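RNA sequencing of 6 libraries in 3 groups was deposited by the authors as whole-number counts per gene, which were used as raw counts. Per the submitters' processing notes, the tools were FastQC 0.11.9, Trim Galore 0.6.7, HISAT2 2.2.1 and StringTie 2.2.1 with build hg38. How reads were counted (tool, annotation, strand, reads with several matches) is not given in the sources used here, so reads of overlapping genes or near-identical copies may be split or lost. Per the labels' protocols, RNA was extracted with TRIzol, and an Abclonal kit served for the libraries, read in paired-end mode.

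Genes passed filterByExpr by group (16039 genes) and were fitted with edgeR 4.0.16 in R 4.3.3 (TMM, robust quasi-likelihood, no intercept, all 6 libraries sharing dispersion, 3 residual degrees of freedom at each gene before shrinkage). Contrasts were each hairpin and their mean against shControl, and shRNA1 against shRNA2. The code was tested on simulated data. Alternatives were DESeq2 1.42.0, RLE factors, total counts without TMM, no filter, a replicate block, a stricter filter (at least 10 counts in 2 libraries and 1 CPM on average), glmTreat against a fold of 1.2, fits to only the groups compared, and each library left out, with the single library then left in a group taken to vary as the rest do. Depth gave 14.9 to 36.0 counts per CPM. Replicate libraries differed beyond counting noise (chi-square per gene 4.47 to 6.55), so none was a duplicate.

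Positions and exon lengths come from GENCODE 29 on GRCh38, and promoters from RefSeq on GRCh38.p14, read with Python 3.11.15 and pandas 2.3.3. Figures used matplotlib 3.10.9. The genes and lists were chosen with earlier results of these data known. Values in each library are given, by rule, for up to 4 genes of each class with the smallest p, for a fixed set of stress genes (HSPA1A, HSPA1B, HSPA8, DNAJB1, HSPH1, HSP90AA1, HSP90AB1, HSPB1, CRYAB, BAG3, HSF1 and HSF2) and for genes called against their class. Up to 4 genes with the smallest p were named from each further list. Other names, the gene pairs, the compartments and the printed promoters were chosen after values were seen. Protein sequences were not used here.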

Additional observations from a re-analysis of the deposited data

How the results depend on the processing

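With 2 libraries per group, small changes depend on single shControl libraries and on scaling. Of the 53 genes called for the mean of both hairpins, 29 higher and 6 lower (DNAJB6, DNAJB9, DNAJC1, DNAJC27, HSF2 and HSPA13) kept their call in all 13 alternatives, and 32 and 8 with each library left out. Total counts without TMM moved the median of the tested genes to 0.15 for shRNA1, for shRNA2 and for their mean, with 47 genes called (31 higher and 16 lower), and the share of all called genes that were higher to 36.0%, against 49.7% with TMM. The test against a fold of 1.2 called 37 genes, 7 of them lower (39.5% of all tested genes called). With each library left out, 42 to 49 genes were called for shRNA1, 41 to 52 for shRNA2 and 43 to 54 for their mean, of which 35 to 41 were higher and 8 to 14 lower, and the medians were 0.26 to 0.35, 0.26 to 0.35 and 0.25 to 0.36. The lowest counts of genes called lower were 8 without shControl replicate 1 and 9 without shControl replicate 2, where calls over all tested genes were also fewer (45.3% and 45.1%, against 57.5% with all libraries; lower 22.6% and 21.8%, against 28.9%). Between the hairpins 0 genes were called in any alternative. Over all tested genes, too, the share called changed with the library left out. For each hairpin and for their mean it stayed below the share with all libraries. The spread of the counts of called genes is thus not particular to the chaperone genes. With each library left out, medians over all tested genes were −0.03 to −0.01 for shRNA1, −0.05 to −0.02 for shRNA2 and −0.05 to −0.02 for their mean. The cause of these shifts was not tested. How many of all called genes kept their call under the same rules was not counted, so the kept calls do not set the chaperone genes apart.

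Differences between replicates 1 and 2 were hardly correlated between groups (−0.03 to 0.01), which does not show whether libraries were handled in pairs. The replicate block called 53, 49 and 50 genes for the mean, shRNA1 and shRNA2, and 0 between the hairpins. Of all tested genes it called 57.2%, 52.1%, 52.5% and 0.0561%, in that order. Over single genes, 57 values lost and 7 gained a call, and 25 values of 10 uncalled genes turned sign. Under total counts these were DNAJB2 (−0.14, then called, adjusted p = 0.0309), DNAJC13 (−0.054), DNAJC19 (−0.15), DNAJC6 (−0.056), HSF1 (−0.080) and HSPB11 (−0.12). Without a low-count filter DNAJB2 was at −0.00025 and DNAJC19 at −0.015, and with the stricter filter they were at −0.0012 and −0.016. With each library left out, the values ranged from -0.17 to 0.93 for DNAJB13, -0.026 to 0.054 for DNAJB2, -0.17 to 0.016 for DNAJC15, -0.034 to 0.033 for DNAJC19, -0.13 to 0.013 for DNAJC24, -0.49 to 0.26 for DNAJC28, -0.20 to 0.51 for DNAJC6 and -0.018 to 0.071 for HSPB11. No value exists for the mean contrast under a fit to only the groups compared, since it uses all 3.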

Other observations

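Further lists lie outside the set, and their counts stand beside 28.6% higher, 28.9% lower and 57.5% called in all over the tested genes. Of 13 listed chaperones of the endoplasmic reticulum 6 were higher, 3 lower and 4 not called for the mean of both hairpins. CALR, the lectin chaperone calreticulin, had 2185 and 2209 CPM with shRNA1, 2172 and 2233 CPM with shRNA2 and 1197 and 1213 CPM with shControl (0.87 ± 0.03, edgeR adjusted p = 3.29e-13), and HSPA5, the HSP70 of that compartment, had 1637 and 1589.7 CPM with shRNA1, 1596 and 1586 CPM with shRNA2 and 1166 and 1150.4 CPM with shControl (0.47 ± 0.03). HSP90B1, its HSP90, had 707 and 697 CPM with shRNA1, 694 and 686 CPM with shRNA2 and 1065 and 1046 CPM with shControl (-0.60 ± 0.03), below shControl in every knockdown library. SDF2L1, which works with DNAJB11, rose by 1.83 ± 0.14.

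Of 12 listed mitochondrial chaperones and proteases 5 were higher (41.7%), 4 lower (33.3%) and 3 not called. With 12 genes, a difference from the shares over all tested genes was not tested. SPG7, a protease of the inner membrane, rose by 0.80 ± 0.05 and TRAP1, the mitochondrial HSP90, by 0.35 ± 0.04. GRPEL2, an exchange factor of HSPA9, had a change of -0.91 ± 0.08, and the matrix protease LONP1 one of -0.34 ± 0.03. Of 13 listed regulators of heat shock factors 6 were higher and 5 lower. VCP, an ATPase that extracts ubiquitinated proteins, had 675 and 689 CPM with shRNA1, 684 and 687 CPM with shRNA2 and 264 and 261 CPM with shControl (1.38 ± 0.03) and EEF1A1 rose by 0.30 ± 0.02, while SIRT1 (-0.77 ± 0.09) and MAPK8 (-0.68 ± 0.08) were lower. Among J-domain genes that do not carry a DNAJ name, GAK rose by 0.35 ± 0.06, and HSCB (-0.44 ± 0.12) and SEC63 (-0.16 ± 0.05) were lower.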
